A study of Mus musculus with 4 samples.

Results

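The genes described here encode 10 secreted growth factors of 3 families: the platelet-derived growth factor (PDGF) genes Pdgfa, Pdgfb, Pdgfc and Pdgfd, the vascular endothelial growth factor (VEGF) genes Vegfa, Vegfb and Vegfc, and the fibroblast growth factor (FGF) genes Fgf1, Fgf2 and Fgf7. They were taken by symbol from the 22180 genes to which the array platform's annotation gives a probe set with exactly 1 symbol, and the probe set of highest mean over the 4 arrays was to stand for each gene. All 10 were found, each with 1 probe set, so no second probe set of the same gene could be set beside a value. The arrays, 2 of males and 2 of females, came from untreated wild-type C57Bl/6 mice aged 4 months, with the Achilles and plantaris tendons of an animal combined. Values are log2 RMA values, in which a step of 1 is a doubling of signal. Whether each array stands for its own animal is not stated in the labels, so a p here reflects the spread of these 4 samples, part of which can be technical.

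PDGF ligands act on mesenchymal cells through the receptor tyrosine kinases PDGFR-alpha and PDGFR-beta. VEGF ligands act mainly on the endothelium of blood and lymph vessels, and FGF ligands act on FGF receptors with heparan sulfate as a cofactor. In tendon these families are known from healing, where they drive proliferation of tendon cells and ingrowth of vessels, while the uninjured adult tendon is sparsely vascularised.

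The labels name tenocytes, and whole tendon was homogenised. The 9 tendon markers all had a mean above 2.46, the median level of all probe sets tested. Mkx (mean 2.75), Scx (3.37) and Tnmd (4.62) were the lowest of them. The median of the 9 was between 6.64 and 8.28 per array. The 11 markers of fast skeletal muscle were higher in signal still, with a median between 9.72 and 10.47 per array, so RNA of muscle fibres entered every sample. In such bulk samples fewer cells of a type and less RNA per cell cannot be told apart. Female 2 stood apart from the other arrays: 10 of 11 macrophage markers were highest there (median 5.16, against 3.55 to 3.70 elsewhere), and 10 of 11 fast muscle markers were lowest. Xist, expressed from the inactive X chromosome, was at 2.47 and 1.98 in males 1 and 2 and at 7.34 and 8.04 in females 1 and 2, which fitted the sex given in the labels. The Y-linked gene Eif2s3y was at 4.46 and 4.96 in the male arrays and at 2.86 and 1.65 in females 1 and 2. Kdm5d and Uty, also Y-linked, were at most 2.85 and 2.63 in males.

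No detection call comes with RMA values, so the 1108 probe sets of olfactory receptor genes, which are mainly expressed in the olfactory epithelium, served as a description of background. Their 95th percentile was 2.90 and 2.83 in males 1 and 2 and 2.71 and 2.72 in females 1 and 2. Of the 10 ligands, 7 lay above it on all 4 arrays: Pdgfa, Pdgfc, Vegfa, Vegfb, Vegfc, Fgf1 and Fgf7. Pdgfd did so on 2 arrays, Pdgfb on 1 and Fgf2 on 0. The percentile is no strict limit: Eif2s3y exceeded it in female 1, and Uty, a gene expressed in males, did so on no array. Vegfb, Vegfa and Fgf7 had the strongest signal, and their values were above 95.1%, 94.3% and 89.5% of all probe sets tested on the array where each stood lowest. Probe sets differ in the number and affinity of their probes and RMA does not correct for length, so an order between genes is one of signal and not of transcript number.

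**Figure D1:**
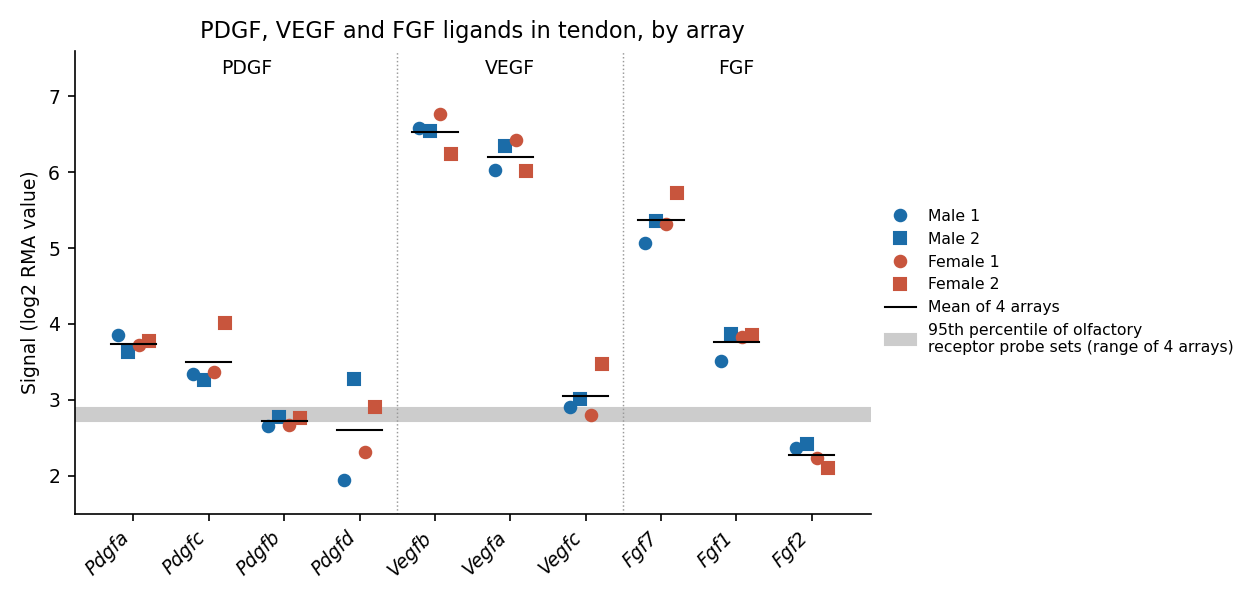
Log2 RMA signal of each ligand on each of the 4 arrays (points; blue, males; red, females), by family, with the mean of the 4 arrays as a black line and, in grey, the range over the arrays of the 95th percentile of olfactory receptor probe sets. Vegfb, Vegfa and Fgf7 lie far above the grey band, Pdgfb and Vegfc lie close to it and Fgf2 lies below it.

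In the VEGF family Vegfb and Vegfa had strong signal and Vegfc weak signal. Vegfb, which encodes a ligand of VEGF receptor FLT1 that is abundant in muscle and heart, was at 6.58 and 6.54 in males 1 and 2 and at 6.77 and 6.24 in females 1 and 2. Vegfa, the main angiogenic ligand and a target of hypoxia-inducible factors, was at 6.03 and 6.35 in males 1 and 2 and at 6.43 and 6.01 in females 1 and 2. For both genes the female arrays were the highest and the lowest, and the male values fell between them. Vegfc, the ligand of the lymphatic receptor FLT4, was at 2.91 and 3.01 in males 1 and 2 and at 2.80 and 3.47 in females 1 and 2, close to the olfactory receptor level except in female 2.

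Within an array, Vegfb exceeded Vegfa by 0.33 ± 0.16 (SD, n = 4), in 4 of 4 arrays and by 0.19 to 0.55. Vegfa exceeded Vegfc by 3.15 ± 0.46 (SD, n = 4) in signal. This distance was 3.12 and 3.34 in the male arrays and 3.62 in female 1. It was smallest, 2.54, in female 2, the array in which Vegfa was lowest and Vegfc highest. The order Vegfb, Vegfa, Vegfc thus held on every array, and each step was larger than its spread over the arrays. Because Vegfc lay close to the olfactory receptor level except in female 2, no size in expression is read from its distance to Vegfa.

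The promoters of the 3 VEGF members, and of the FGF members of strongest and weakest signal, are shown so that the sequence before each start can be read beside its signal. RefSeq promoter windows of build GRCm38.p6 were matched for 8 of the 10 members, and 250 bases before the most upstream start listed are printed on the gene's strand, with capitals for GC boxes (GGGCGG on either strand, a site of SP1-type factors). They are Vegfa at chr17:46032378-46032627, Vegfb at chr19:6987652-6987901 and Vegfc at chr8:54077282-54077531, of which Vegfa and Vegfb are on the minus strand and Vegfc on the plus strand.
Vegfb: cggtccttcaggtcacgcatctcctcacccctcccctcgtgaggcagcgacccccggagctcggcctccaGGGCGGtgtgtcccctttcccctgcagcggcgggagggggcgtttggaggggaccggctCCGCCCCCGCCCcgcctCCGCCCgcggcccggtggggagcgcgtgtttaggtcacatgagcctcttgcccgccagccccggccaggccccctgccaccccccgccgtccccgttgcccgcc
Vegfa: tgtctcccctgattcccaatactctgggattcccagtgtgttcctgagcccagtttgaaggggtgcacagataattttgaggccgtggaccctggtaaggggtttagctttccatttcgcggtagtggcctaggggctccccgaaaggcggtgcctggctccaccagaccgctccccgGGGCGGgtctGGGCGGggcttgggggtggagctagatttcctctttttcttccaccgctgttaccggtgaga
Vegfc: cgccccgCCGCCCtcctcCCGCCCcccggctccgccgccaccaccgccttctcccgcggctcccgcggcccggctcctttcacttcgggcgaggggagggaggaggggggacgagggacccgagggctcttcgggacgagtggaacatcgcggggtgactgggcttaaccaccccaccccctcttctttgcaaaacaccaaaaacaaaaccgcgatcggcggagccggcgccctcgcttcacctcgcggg

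All 3 windows hold GC boxes: 4 in Vegfb, 2 in Vegfa, at positions -72 and -62 from the start, and 2 in Vegfc, at -243 and -232. A GC box occurs in 32.7% of the 32851 windows of this length in the RefSeq table. The letters ACGTG (either strand), a form of the core of the hypoxia response element, and TATAAA (either strand) are in none of these 3 windows. They are in 16.6% and 12.4% of all windows, and neither overlaps a GC box here. The form GCGTG of that core, which the Vegfb window holds, was not counted, so absence of the element is not shown. Only these 250 bases were searched, so a hypoxia response element farther upstream would not be seen. The windows were 76.4% (Vegfb), 59.2% (Vegfa) and 71.6% (Vegfc) G and C, against a median of 52.4%. The weak signal of Vegfc and the strong signal of Vegfb both came with GC-rich windows.

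The FGF family was led by Fgf7, the keratinocyte growth factor gene, a product of fibroblasts that acts on epithelial cells. Fgf7 was at 5.06 and 5.36 in males 1 and 2 and at 5.32 and 5.72 in females 1 and 2. The sexes overlapped, with male 1 lowest and female 2 highest. Fgf1, an FGF without a classical signal peptide that binds every FGF receptor, was at 3.51 and 3.87 in males 1 and 2 and at 3.82 and 3.85 in females 1 and 2. Male 1 was the low array for Fgf1, and the other values lay within a narrow band. Fgf2, a broad mitogen for fibroblasts and endothelium that is stored in the matrix, was at 2.36 and 2.41 in males 1 and 2 and at 2.23 and 2.11 in females 1 and 2. Both female values of Fgf2 were below both male values, but every value lay below the olfactory receptor percentile, so these values are not read as a sex difference.

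The signal of Fgf7 exceeded that of Fgf1 by 1.60 ± 0.18 (SD, n = 4) within an array, in 4 of 4 arrays and by 1.49 to 1.87. The signal of Fgf2 was below both on 4 of 4 arrays. Because Fgf2 lay at background, no size is read from its distance to the other FGF genes.

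The 250 bases before the start of Fgf7 (chr2:126034408-126034657, plus strand) and of Fgf2 (chr3:37348403-37348652, plus strand) belong to the FGF members of strongest and weakest signal and are printed with the same capitals.
Fgf7: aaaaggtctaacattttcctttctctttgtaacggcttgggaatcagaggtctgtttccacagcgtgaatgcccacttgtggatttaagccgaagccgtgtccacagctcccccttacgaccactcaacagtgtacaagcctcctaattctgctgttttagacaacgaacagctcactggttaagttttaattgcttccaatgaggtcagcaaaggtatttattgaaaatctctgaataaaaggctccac
Fgf2: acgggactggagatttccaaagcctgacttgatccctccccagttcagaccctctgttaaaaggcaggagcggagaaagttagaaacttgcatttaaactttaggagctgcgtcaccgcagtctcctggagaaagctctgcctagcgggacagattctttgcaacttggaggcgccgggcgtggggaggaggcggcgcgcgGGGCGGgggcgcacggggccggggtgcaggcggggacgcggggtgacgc

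The Fgf7 window holds none of the 3 motifs in the letters searched. It was 43.6% G and C, lower than most windows, with only 21.1% at or below it. The Fgf2 window was 62.4% G and C and holds 1 GC box, at -49. Here the gene of stronger signal had the window poorer in G and C. Among the VEGF genes Vegfb had the richest window, but Vegfa, also of strong signal, had the poorest of the 3 (59.2%). The windows thus gave no common order with signal.

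The PDGF ligands had lower signal and lay closer together. Pdgfa, whose product binds PDGFR-alpha, was at 3.85 and 3.62 in males 1 and 2 and at 3.72 and 3.77 in females 1 and 2, with both female values between the male values. Pdgfc, which is secreted in a latent form and also acts on PDGFR-alpha once cleaved, was at 3.33 and 3.26 in males 1 and 2 and at 3.37 and 4.02 in females 1 and 2. Its female values were both above the male ones, with female 1 close to them and female 2 apart. Pdgfb, known mainly as the endothelial and platelet ligand that recruits pericytes, was at 2.66 and 2.77 in males 1 and 2 and at 2.66 and 2.77 in females 1 and 2. Only female 2 placed Pdgfb above the olfactory receptor percentile.

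Pdgfd, the latent ligand of PDGFR-beta, was at 1.94 and 3.27 in males 1 and 2 and at 2.31 and 2.91 in females 1 and 2. It had the widest range of the 10 ligands, 1.34, wider than that of 93.8% of all probe sets tested, and the wide gap lay within each sex. Pdgfb had the narrowest, 0.11, and only 3.45% of probe sets had a smaller one. Pdgfd was above the olfactory receptor percentile in male 2 and female 2 and below it in male 1 and female 1.

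Within an array, Pdgfa exceeded Pdgfc by 0.24 ± 0.34 (SD, n = 4), in 3 of 4 arrays. In female 2 the order was turned, at -0.25. Pdgfc was above Pdgfb in 4 of 4 arrays, and Pdgfb was above Pdgfd in 2 of 4. Pdgfb and Pdgfd were not above the olfactory receptor percentile on every array, so no size is read from these steps. The order of Pdgfa and Pdgfc was not beyond its spread, and neither was that of Pdgfb and Pdgfd. In male 2 Pdgfc minus Pdgfd was -0.01.

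**Figure D2:**
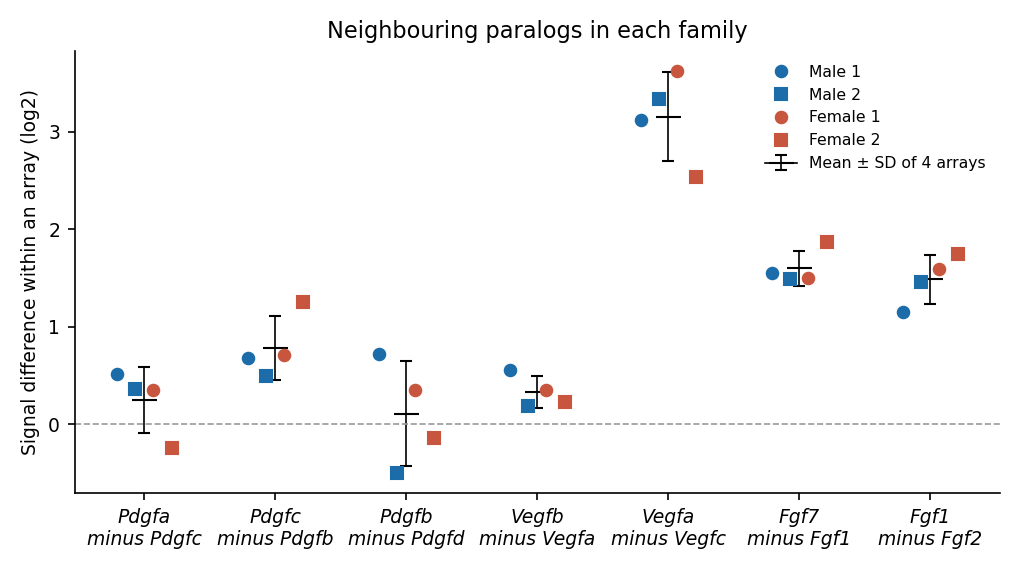
Difference in log2 signal within an array between neighbouring paralogs in the order of each family (points, the 4 arrays; black, mean ± SD). The Vegfa to Vegfc step lies between 2.54 and 3.62 on every array, while Pdgfa minus Pdgfc and Pdgfb minus Pdgfd take both signs. Steps to Pdgfb, Pdgfd, Fgf2 and Vegfc involve values at or close to background, and their size is not read.

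Next, the ligands were compared between the sexes, the comparison the series was made for. No ligand passed the test: limma called 0 of 10 at an adjusted p under 0.05 (Benjamini-Hochberg over 23521 probe sets, of which 0% were called). At an unadjusted p under 0.05 there were 0 of 10 as well, against 4.49% of all probe sets. The adjusted p of the 10 lay between 0.969 and 1, and the female value was higher in 7 and lower in 3. The arrays of the sexes did not overlap for 2 of 10, Pdgfc and Fgf2, against 33.3% of all probe sets. Pdgfc was higher in females, which 15.8% of all probe sets were without overlap, and Fgf2 was higher in males, which 17.5% were. With 2 arrays against 2 an exact permutation test cannot give a p below 0.333. Limma did not call Xist either, although it differed by 5.47 (SE 0.32, limma adjusted p = 0.772). A lack of calls, here or under the alternatives below, therefore does not show that a gene is alike in the sexes.

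For ligands above background, the intervals say how large a difference in signal between the sexes these arrays could have missed. Pdgfa had a difference of 0.00 (95% interval -0.42 to 0.43), female minus male on the log2 scale. Pdgfb had one of 0.00 (-0.40 to 0.40), but near background this interval does not bound a difference in expression. As a female to male ratio of signal, the Pdgfa interval ran from 0.745 to 1.35. Vegfa differed by 0.03 (SE 0.23, interval -0.58 to 0.64) and Vegfb by -0.05 (SE 0.23, interval -0.66 to 0.56). For Vegfa this left room for ratios from 0.671 to 1.55.

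The widest differences were those of Pdgfc, 0.39 (SE 0.26, interval -0.31 to 1.09), and Fgf7, 0.31 (SE 0.22, interval -0.28 to 0.89). Without female 2 they were 0.07 and 0.11. Vegfc differed by 0.18 (SE 0.27), and by -0.16 without female 2. Fgf1 differed by 0.15 (SE 0.18) and Fgf2 by -0.22 (SE 0.15), the latter with every value at background. The Pdgfd difference of 0.00 had an interval of -1.37 to 1.38, the widest of the 10, with 2 of its 4 values at background.

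**Figure D3:**
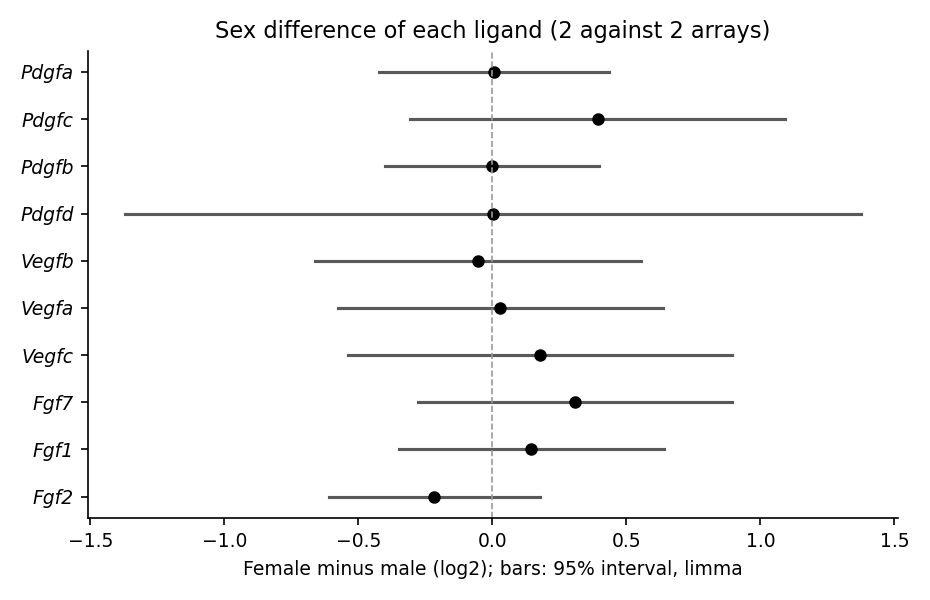
Female minus male difference of each ligand (point) with its 95% interval from limma (bar), on the log2 scale, 2 arrays of each sex. Every interval includes 0, and that of Pdgfd, from -1.37 to 1.38, is the widest.

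Single arrays stood out within a sex. Pdgfc, Vegfc and Fgf7 were highest in female 2, by 0.52, 0.42 and 0.36 above their 4-array means, and Vegfb was lowest there, by -0.29. In the same array the summed log2 signal of the 11 macrophage markers was 59.7, against 43.7 to 45.9 elsewhere, and that of the 11 fast muscle markers 97.7, against 109.6 to 111.8. The fast muscle genes did not fall alike: Myh4 was at 7.35 there and 10.20 to 10.61 elsewhere, Acta1 at 11.09 and 11.09 to 11.34. For the 7 slow muscle markers the sum was 60.7 there and 54.1 to 63.3 elsewhere. The summed signal of the 9 tendon markers was 62.9 there and between 56.1 and 61.1 in the other arrays. Sums were highest there too for adipocyte markers (52.0, against 40.4 to 49.3) and endothelial markers (44.2, against 37.1 to 43.1). The same held for the 3 Schwann cell markers (11.1, against 8.6 to 9.9). For pericyte and smooth muscle markers the sum was lowest there (43.1, against 43.5 to 45.5). Male 1 was the lowest array for 4 ligands, Pdgfb, Pdgfd, Fgf1 and Fgf7, at -0.057, -0.67, -0.25 and -0.30 from their means. There 8 of 9 adipocyte markers, 7 of 7 slow muscle markers and 7 of 10 endothelial markers were lowest too. The part of these cell types in the ligand values was not tested.

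Genes with the most similar pattern over the 4 arrays were sought for Vegfa and for Pdgfd, the ligand of widest range. Likeness was the root mean square distance between deviations from the 4-array means, among 6670 genes above the median level with a range of at least 0.5. Vegfa itself had a range of 0.42, below this cut. Genes that varied as little as Vegfa were therefore not searched, and nearer ones can exist. For Vegfa the nearest of the genes searched were Tsc2, an inhibitor of mTOR signalling (distance 0.036), Mars2, a mitochondrial methionyl-tRNA synthetase (0.041), and Atp5b, a subunit of ATP synthase (0.042). Of the genes searched, 113 lay within 0.1 of Vegfa, so the match is not selective. For Pdgfd the nearest were Zc3h7a (0.073), Eef1e1 (0.078) and Sh3glb2 (0.078), and 4 genes lay within 0.1.

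The receptors were examined next. Of 15 receptor and co-receptor genes, 8 lay above the olfactory receptor percentile on all 4 arrays: Pdgfra, Pdgfrb, Pdgfrl, Flt1, Nrp1, Nrp2, Fgfr1 and Fgfrl1. Each ligand family thus had a receptor with signal above background, which in the VEGF family was Flt1, beside the co-receptors Nrp1 and Nrp2. Kdr lay above the percentile on 3 arrays and Flt4 on 0. Limma called 0 of 15 between the sexes, 0 of 15 had an unadjusted p under 0.05, and the median difference was 0.00, beside -0.01 for all probe sets tested. The arrays of the sexes did not overlap for 2 of 15, Flt1 and Fgfrl1, against 33.3% of all probe sets.

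Pdgfra, the receptor of Pdgfa and Pdgfc products and a fibroblast marker, was at 4.20 and 3.58 in males 1 and 2 and at 4.15 and 5.13 in females 1 and 2. Pdgfrb, the receptor on pericytes, was at 3.72 and 4.39 in males 1 and 2 and at 3.73 and 3.30 in females 1 and 2. The arrays of highest and lowest signal were exchanged between the receptors: female 2 was highest for Pdgfra and lowest for Pdgfrb, and male 2 the reverse. Their sex differences were 0.74 (SE 0.42) and -0.54 (SE 0.30), each with an adjusted p of 0.969 from limma. Pdgfrl, a receptor-like gene without a kinase, differed by 0.30 (SE 0.21).

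Flt1, which binds Vegfa and Vegfb products, was at 3.83 and 5.11 in males 1 and 2 and at 5.23 and 5.87 in females 1 and 2. It had the widest difference of the list, 1.08 (SE 0.50), which did not pass the test (limma adjusted p = 0.969), and male 1 was its low array. Kdr, the main signalling receptor of Vegfa, was at 2.58 and 3.35 in males 1 and 2 and at 2.90 and 2.98 in females 1 and 2, near the olfactory receptor level. Flt4, the lymphatic receptor of Vegfc, did not exceed that level on any array and had a mean of 2.54. The co-receptor Nrp1 was nearly constant, between 3.94 and 4.02, while Nrp2 ran from 3.13 in male 1 to 4.19 in female 2. The summed signal of the 10 endothelial markers was 37.1 in male 1 and 40.0 to 44.2 elsewhere, and its part in the Flt1 values was not tested.

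Among the FGF receptors, only Fgfr1 had strong signal, at 5.49 and 4.71 in males 1 and 2 and at 5.37 and 5.23 in females 1 and 2. Fgfr2, whose epithelial splice form receives Fgf7, had a mean of 1.84, and Fgfr4 one of 1.88. Neither exceeded the olfactory receptor percentile on any array, and Fgfr3 did so on 1 array. Thus Fgf7 had signal well above background in samples where the gene of its usual receptor did not. Fgfrl1, a receptor-like gene without a kinase, had a mean of 3.49, and the endocrine co-receptors Kl and Klb had means of 1.87 and 1.79.

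**Figure D4:**
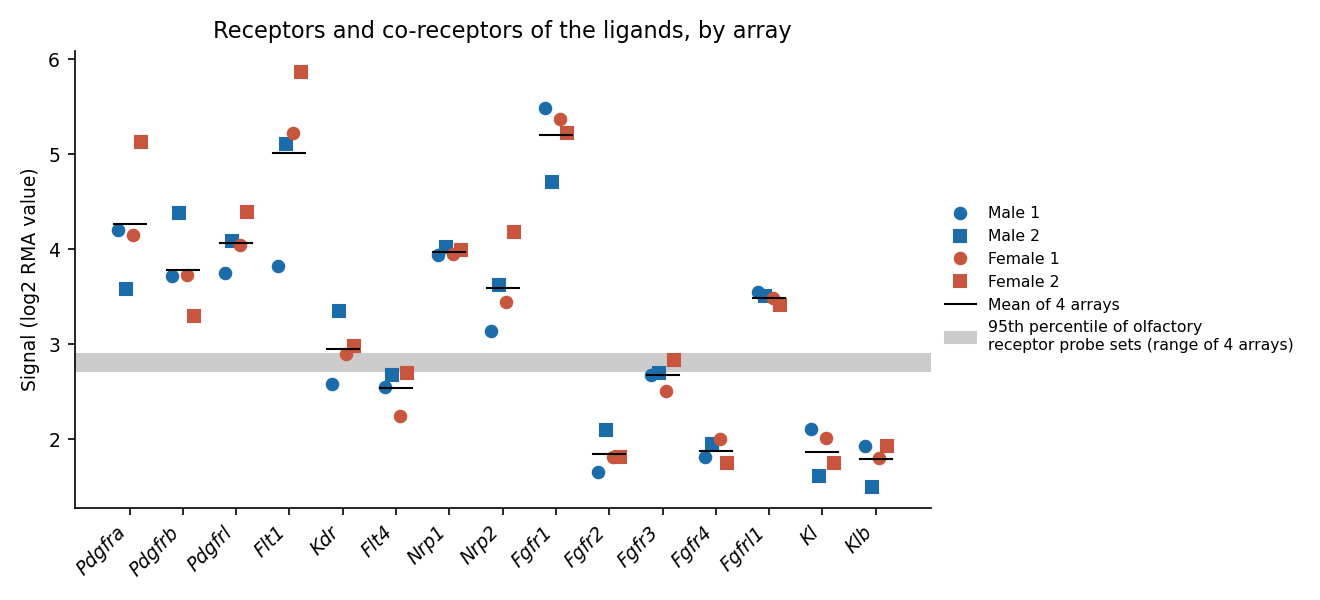
Log2 RMA signal of 15 receptor and co-receptor genes on each of the 4 arrays (points; blue, males; red, females), with the mean of the 4 arrays as a black line and the olfactory receptor 95th percentile in grey. Flt1 and Fgfr1 have the highest means, 5.01 and 5.20, and Fgfr2, Fgfr4, Kl and Klb lie below the grey band.

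The remaining ligands of these families were mostly at background. Of 19 other FGF genes, Fgf18 and Fgf22 lay above the olfactory receptor percentile on all 4 arrays, with means of 3.58 and 3.73. Limma called 0 of 19, and 0 had an unadjusted p under 0.05. Fgf17 and Fgf18 had the widest differences among those above the median level, -0.48 (SE 0.19) and 0.26 (SE 0.20). The placental ligand gene Pgf was at a mean of 1.67, below that percentile on every array. Vegfd, a lymphangiogenic ligand, was at 3.54 and 4.27 in males 1 and 2 and at 5.67 and 3.53 in females 1 and 2. Female 1 alone was high, and the difference of 0.69 (SE 0.77) was within the spread. The signal of Vegfd was above that of Vegfc on all 4 arrays.

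Feedback inhibitors and transcriptional targets of ERK, the kinase downstream of these receptors, were compared as a readout of the pathway. Limma called 0 of 14; 1 of 14 had an unadjusted p under 0.05, against 4.49% of all probe sets, and the median difference was 0.02. That gene was Etv4, an ETS factor, at -0.45 (SE 0.15), but its mean of 2.13 lay below the olfactory receptor percentile. Spry4 and Spred1, inhibitors of RAS and RAF signalling, had the widest differences above the median level, -0.35 (SE 0.28) and 0.33 (SE 0.34). With a mean of 2.50, Spry4 exceeded the olfactory receptor percentile on only 1 array. The ERK phosphatase gene Dusp6 and the ETS factor gene Etv5, picked after their values were seen, had the strongest signal of the list, each with a mean of 6.94. Their second probe sets had means of 5.13 and 3.11, which shows how far signal can depend on the probe set.

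Genes that process the ligands or hold them in the matrix were called in 0 of 16 by limma. An unadjusted p under 0.05 was seen for 3 of 16, against 4.49% of all probe sets: Sulf2 and Ext1 had higher values in females, and Plau in males. The list's median difference was 0.15, beside -0.01 over all probe sets tested. The female mean was the higher in 13 of 16, beside 11484 of 23521 probe sets. The same held for 11 of 11 macrophage markers (median difference 0.52), 8 of 9 adipocyte markers (0.73) and 7 of 7 slow muscle markers (0.81). It also held for 7 of 10 endothelial and 4 of 9 tendon markers. The female mean was the lower in 9 of 10 pericyte and smooth muscle markers (-0.08) and 9 of 11 fast muscle markers (-0.27). Single arrays stood out in these lists: female 2 was highest for 9 of the 16 list genes and 10 of 11 macrophage markers. Male 1 was lowest for 7 of the 16 list genes, 8 of 9 adipocyte markers and 7 of 7 slow muscle markers. The part of these cell types in the list's values was not tested. Plau, the urokinase gene whose product cleaves latent Pdgfd protein, was at 3.54 and 4.55 in males 1 and 2 and at 2.92 and 2.75 in females 1 and 2, a difference of -1.21 (SE 0.37, limma adjusted p = 0.969). Ext1, a polymerase of heparan sulfate, was at 3.94 and 4.60 in males 1 and 2 and at 5.03 and 5.34 in females 1 and 2. Sulf2, which trims sulfate from heparan sulfate, was at 4.67 and 5.04 in males 1 and 2 and at 5.47 and 5.67 in females 1 and 2. The arrays of the sexes did not overlap for 6 of 16 genes of the list, these 3 among them, against 33.3% of all probe sets.

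Because Vegfa is a hypoxia target, regulators and companions of that response were examined. Limma called 0 of 15, and 2 of 15 had an unadjusted p under 0.05, in opposite directions, against 4.49% of all probe sets. Slc2a1, a glucose transporter, was at 3.78 and 3.82 in males 1 and 2 and at 4.48 and 4.49 in females 1 and 2. Its second probe set, with a mean of 1.62, differed by only 0.06 (SE 0.16). Pfkfb3, a regulator of glycolysis, was at 4.83 and 4.75 in males 1 and 2 and at 3.93 and 4.06 in females 1 and 2. Ddit4 and Egln3, both hypoxia-inducible, had the widest differences, 1.65 (SE 0.91) and 1.19 (SE 0.54), and both were highest in female 2, at 5.82 and 7.47. Of the 15 genes 4 were highest in female 2 and 5 in female 1, the array in which Vegfa was highest.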

How the data were processed

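Per the submitters' processing notes, the authors used oligo and RMA; their versions, the annotation build and the level at which probes were summarised are not given in the sources used here. Values as deposited are on a log2 scale, taken from their range (0.517 to 11.93) and from RMA, for 41345 rows on 4 arrays of a Mouse Gene ST strip; array number limits the precision. RMA removes background and sets the arrays to one distribution, which compresses weak signals toward a floor and so can understate differences near it.

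Of the rows, 23521 had exactly 1 symbol, 1814 several and 16010 none. The 23521 were fitted with sex as the only term in limma 3.58.1 (R 4.3.3, eBayes with the default prior), tested on simulated data, with Benjamini-Hochberg adjustment and a threshold of 0.05. Lists were described by counts and medians, without a set test. Paralog differences were taken within an array. The rule for named genes took all ligands and receptors and, of other lists, genes at an unadjusted p under 0.05 and the 2 of widest difference above the median level. Patterns were matched for Vegfa and the ligand of widest range. Ndst1 and Ankrd37 had no probe set with exactly 1 symbol. The members and lists were chosen with earlier results of these data known, and the olfactory receptor reference was added after the values were seen.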

Additional observations from a re-analysis of the deposited data

How the results depend on the processing

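Under the 13 alternatives, limma called 0 probe sets and 0 of the 10 ligands, and the lowest adjusted p of a ligand was 0.816. These were the whole table, only probe sets above the median level, a robust prior with a trend, a second quantile normalization, array medians set equal, the replicate block, an adjusted p under 0.1, 1 probe set or the mean per gene, and leaving out each array. The ligands have 1 probe set each, so other probe sets gave no value, and Fgf2 has none above the median level. The replicate numbers were not shown to pair samples (the deviations of male 1 and female 1 correlated at r = -0.064); with the replicate block 0 ligands were called, the Vegfa difference stayed 0.03, and 981 probe sets had an unadjusted p under 0.05, against 1056. Signs of differences near 0 turned: Pdgfa (-0.067) and Vegfa (-0.019) after quantile normalization, and Pdgfb (0.026) after centring. Centring and quantile normalization moved the median of all probe sets by less than 0.1.

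Leaving out each array in turn, which takes the spread of the remaining array of that sex from the other sex, the sign of 7 of 10 ligands turned in at least 1 case. The differences ran from -0.11 to 0.12 for Pdgfa, -0.058 to 0.057 for Pdgfb, -0.67 to 0.67 for Pdgfd, -0.18 to 0.24 for Vegfa, -0.32 to 0.21 for Vegfb, -0.16 to 0.51 for Vegfc and -0.034 to 0.33 for Fgf1. Pdgfc (0.07 to 0.72), Fgf7 (0.11 to 0.51) and Fgf2 (-0.28 to -0.15) kept their sign. Without female 1, 1 ligand had an unadjusted p under 0.05, Pdgfc. Without female 2 the median of the hypoxia list was 0.34, against 0.06.

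Each paralog difference moved by less than its spread under quantile normalization. The mean over probe sets could not move it, because no ligand has a second probe set. Leaving out each array in turn cannot move a mean over so few arrays by as much as their SD. Those cases therefore do not test the differences against their spread. Without male 1, Pdgfb minus Pdgfd turned from 0.107 to -0.097, while the other paralog differences kept their sign in every case. The cause of the sign changes was not tested.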
